A study of Mus musculus with 18 samples.

Results

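The 77 genes described here are named for proteins of the mitochondrial ribosome, 48 of the large subunit (symbols in Mrpl) and 29 of the small subunit (symbols in Mrps). They were chosen by symbol from a table of 48709 genes, with at least 10 counts asked for in 6 or more of the 18 libraries. The symbol pattern matched 82 rows, of which 5 named pseudogenes were left out, and the count minimum removed 0. The lowest count of any chosen gene in any library was 112, and all 77 were among the 13281 genes tested.

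Polyadenylated RNA of the left ventricle of wild-type male C57BL/6J mice, 12 weeks old, was sequenced in 3 groups of 6 libraries. Control mice received saline. The second group received isoproterenol, a synthetic agonist of β-adrenergic receptors, at 30 mg/kg/day from an implanted osmotic pump, and the third the same infusion with minocycline, a tetracycline antibiotic, injected into the peritoneum daily at 50 mg/kg. Tissue was collected after 21 days. Minocycline without isoproterenol was not analysed here, so every value for minocycline is one on top of isoproterenol. Each library has a number of its own, but the protocol text mentions pooled RNA, so it is not certain that a library is 1 animal. The p-values therefore cover only the spread among these libraries, which may be technical.

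The mitochondrial ribosome makes the few proteins that the mitochondrial genome encodes, all of them core parts of the respiratory chain and ATP synthase, on which the contracting heart depends. Its RNA comes from the mitochondrial genome, whereas all its proteins are encoded in the nucleus, made in the cytosol and imported. It descends from a bacterial ribosome: many of its proteins have bacterial counterparts, others are found only in mitochondria. Tetracyclines bind the small subunit of bacterial ribosomes and can also slow mitochondrial translation. A symbol does not always give the subunit. Structures place the products of Mrps18a and Mrps30 in the large subunit, and the product of Mrps36 is now known as a component of the 2-oxoglutarate dehydrogenase complex. The symbol was kept as the rule, and all 3 were counted as small subunit genes.

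Libraries held 14203041 to 22688664 counts, of which the 77 genes took 0.275 to 0.325%. Cardiomyocyte genes were abundant in every library, and the 10 cardiomyocyte markers together held 69186 to 74632 CPM (a gene's share of a library's counts in parts per 1000000, on library sizes scaled by the TMM method) in control, 58374 to 63245 with isoproterenol and 56932 to 68121 with both drugs. Of these markers 3 of 10 fell with isoproterenol and 4 of 10 with both drugs, while 4 and 7 of 8 fibroblast markers and 6 and 6 of 7 macrophage markers rose, and 0 of them were at 0 in all libraries. Of all genes tested, 5.62% fell and 6.94% rose with isoproterenol, and 9.05% fell and 10.2% rose with both drugs. In such bulk tissue, fewer cells of a type and less RNA per cell cannot be told apart. More than 80 CPM of Myl7, an atrial light chain gene, was held by 4 libraries (Control 5, Control 6, Isoproterenol 5, and Isoproterenol and minocycline 2), and calls that are lost without them are named below. The mitochondrial ribosomal RNAs mt-Rnr1 and mt-Rnr2 are listed at 0 in all libraries and are not described.

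The 77 genes lie on 17 chromosomes. Of the 77, 28 (36.4%) have another tested gene that starts on the other strand within 1000 bases, against 15.4% of all genes tested. One such pair is made of members: the starts of Mrpl46 and Mrps11 lie 412 bases apart and their annotated bodies overlap at the start. Others pair a ribosomal protein with a second gene of mitochondrial gene expression. Mrps12 lies 172 bases from Sars2, which encodes the mitochondrial seryl-tRNA synthetase, and Mrpl43 lies 116 bases from Peo1, which encodes the helicase of mitochondrial DNA. In the table, 63 of the 77 have the same start and end as in GENCODE M21 on GRCm38.

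Promoter windows of RefSeq (GRCm38.p6, 250 bases before to 50 after an annotated start) were found for 68 of the 77 genes, 42 large and 26 small. They were searched on both strands for 3 motifs named for factors known to act on genes of mitochondrial proteins. GCGCNTGCG (NRF1) was found in a window of 18 of the 68 genes (26.5%), against 14.9% of the 10059 tested genes with a window and 7.12% of all 27025 genes with one. CCGGAAG (ETS factors, among them GABP) was found for 25 of 68 (36.8%), against 19.2% and 9.93%. AAGATGGC (YY1) was found for 12 of 68 (17.6%), against 5.13% and 3.19%. At least 1 of the motifs was found for 43 of 68 (63.2%), against 33.8% of tested genes and 17.9% of all, and by subunit for 28 of 42 large and 15 of 26 small subunit genes. These are matches of letters and say nothing about binding in these hearts.

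The windows of 6 genes that passed the test against control, described further on, are printed from 5′ to 3′ in the direction of the gene, with any match of the 3 motifs, read on either strand, in capitals. Mrpl14, Mrpl16 and Mrpl20 rose, and Mrpl3, Mrps27 and Mrps36 fell. The windows are chr17:45686099-45686398 (+ strand), chr19:11770165-11770464 (+), chr4:155802628-155802927 (+), chr9:105053018-105053317 (+), chr13:99344536-99344835 (+) and chr13:100744610-100744909 (- strand), in that order.
Mrpl14: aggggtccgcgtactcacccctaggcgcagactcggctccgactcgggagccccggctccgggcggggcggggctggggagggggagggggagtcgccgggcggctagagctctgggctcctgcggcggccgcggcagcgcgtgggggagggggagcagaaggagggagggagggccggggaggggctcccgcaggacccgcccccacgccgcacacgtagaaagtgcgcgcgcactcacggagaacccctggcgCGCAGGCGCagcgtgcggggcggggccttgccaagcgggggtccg
Mrpl16: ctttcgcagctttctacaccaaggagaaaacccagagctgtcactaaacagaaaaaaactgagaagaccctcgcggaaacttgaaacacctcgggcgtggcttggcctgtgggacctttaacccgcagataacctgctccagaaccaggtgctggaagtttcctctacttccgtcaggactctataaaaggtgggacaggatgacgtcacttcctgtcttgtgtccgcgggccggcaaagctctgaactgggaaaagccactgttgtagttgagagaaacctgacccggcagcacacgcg
Mrpl20: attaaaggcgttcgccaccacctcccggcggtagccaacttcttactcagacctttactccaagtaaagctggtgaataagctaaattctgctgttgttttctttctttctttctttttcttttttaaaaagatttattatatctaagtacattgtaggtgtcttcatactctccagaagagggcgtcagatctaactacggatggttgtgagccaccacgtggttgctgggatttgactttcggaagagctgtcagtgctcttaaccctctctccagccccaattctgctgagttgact
Mrpl3: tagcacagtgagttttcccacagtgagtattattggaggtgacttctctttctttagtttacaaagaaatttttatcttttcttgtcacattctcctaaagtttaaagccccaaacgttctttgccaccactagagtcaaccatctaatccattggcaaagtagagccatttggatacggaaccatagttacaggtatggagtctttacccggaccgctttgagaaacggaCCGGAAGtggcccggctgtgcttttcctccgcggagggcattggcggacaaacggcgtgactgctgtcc
Mrps27: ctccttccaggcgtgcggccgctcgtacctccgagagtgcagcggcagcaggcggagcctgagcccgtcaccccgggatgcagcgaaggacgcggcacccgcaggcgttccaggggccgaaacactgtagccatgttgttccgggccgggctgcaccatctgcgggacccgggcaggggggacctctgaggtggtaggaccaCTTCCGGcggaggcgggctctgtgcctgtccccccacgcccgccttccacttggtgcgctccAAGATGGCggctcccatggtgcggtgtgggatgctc
Mrps36: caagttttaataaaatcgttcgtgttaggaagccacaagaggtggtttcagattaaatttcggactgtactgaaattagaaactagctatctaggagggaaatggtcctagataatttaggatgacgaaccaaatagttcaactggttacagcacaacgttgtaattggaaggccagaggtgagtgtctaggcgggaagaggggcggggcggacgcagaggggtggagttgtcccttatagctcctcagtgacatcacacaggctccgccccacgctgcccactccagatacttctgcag
Among the 3 that rose, Mrpl14 holds an NRF1 match and Mrpl16 and Mrpl20 hold none of the 3 motifs. Among the 3 that fell, Mrpl3 holds an ETS match, Mrps27 holds an ETS and a YY1 match, and Mrps36 holds none. The other called genes with a window are not printed. Of these Mrpl33, which rose, holds an ETS match. Among those that fell, Mrpl30 and Mrpl9 hold NRF1 matches, Mrpl21 holds an ETS match, and Mrpl43 holds NRF1 and ETS matches. Mrps35, which also fell, had no window. Whether a motif goes with a direction was not tested.

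Levels were compared between genes on the deposited TPM scale, which divides by the length of the annotated gene model. Mrpl42, a large subunit protein found in mitochondria and not in bacteria, was highest in control at 506 deposited TPM (475 to 538 over 6 libraries). That place rests on the length the authors used. Counts over TPM scaled with the annotated exon length of GENCODE M21 within 10% for 58 of the 77 genes, but for Mrpl42 they point to 666 bases, where its annotated exons span 3682. On the annotated length Mrpl42 would stand at 91.6 TPM, the fourth of the 77. In the deposited order it was followed by Mrps21 at 129 TPM (122 to 139) and Mrpl12 at 101 TPM (95.2 to 107). Mrpl12 is the counterpart of the bacterial stalk protein L7/L12 and also binds the mitochondrial RNA polymerase.

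At the low end, Mrps10 had 2.64 TPM (2.43 to 2.94), Mrps22 4.71 TPM and Mrpl17 4.80 TPM. The model lengths behind these differ: the annotated exons of Mrps10 together span 8079 bases and those of Mrpl17 7605, against 739 for Mrps21. In the order of the 77 levels, 68 of the 76 neighbouring pairs overlapped in their control ranges. The 8 gaps without overlap included those below Mrpl42, Mrps21 and Mrps23 and the one above Mrps10. The median control level was 25.9 ± 0.870 TPM for large and 21.1 ± 0.996 TPM for small subunit genes (median over genes per library, SD, n = 6). With isoproterenol these medians were 28.9 ± 1.38 and 23.3 ± 1.73 TPM and with both drugs 27.6 ± 1.92 and 22.99 ± 1.45 TPM. They lie above control, where the TMM-scaled values described next lie below it, and TPM carries no scaling factor between libraries, so it was not used to compare groups.

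**Figure D1:**
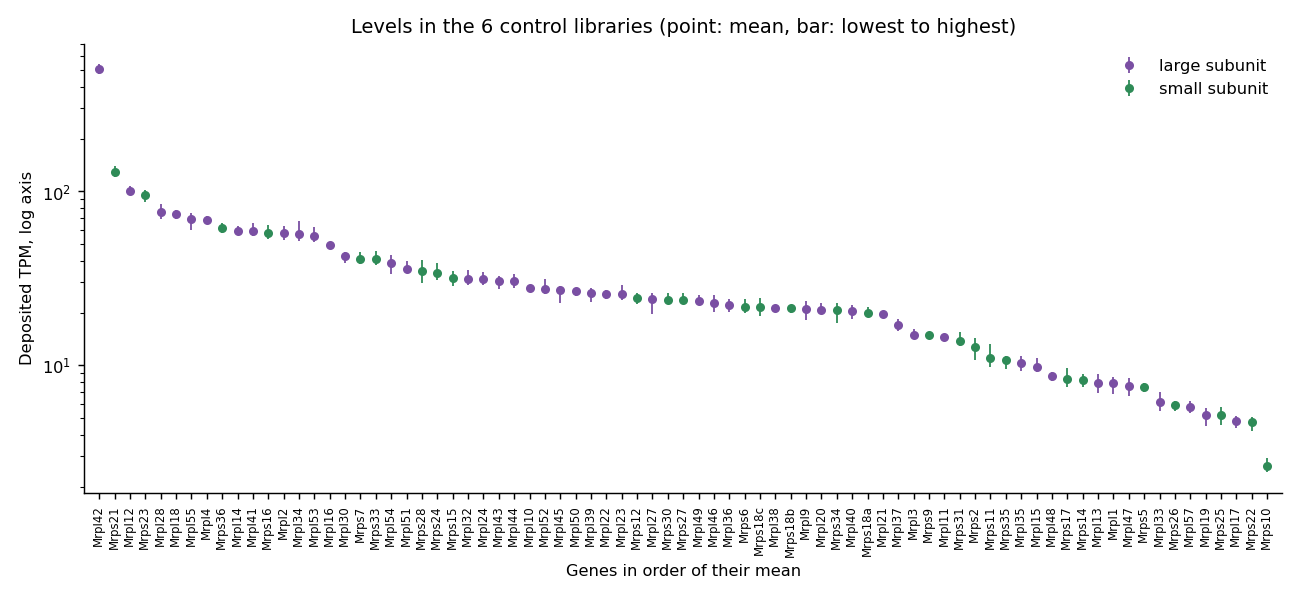
Deposited TPM (log axis) of the 77 genes in the 6 control libraries, in order of their mean, purple for large and green for small subunit genes, with bars from the lowest to the highest library. Mrpl42 stands at 506 TPM, Mrps10 at 2.64 TPM, and most neighbours overlap.

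Within the control group these genes varied little. Their coefficient of variation of CPM over the 6 libraries had a median of 6.60% and lay between 2.44% (Mrpl10) and 12.4% (Mrpl27). For the 7634 tested genes whose mean CPM over all 18 libraries was at least that of the lowest of the 77, the median was 8.50%.

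Large and small subunit genes were first compared as sums. The 48 large subunit genes held 1927, 2045 and 2138 CPM together (lowest, median and highest control library), 1809, 2014 and 2041 with isoproterenol, and 1840, 1979 and 2065 with both drugs. The 29 small subunit genes held 970, 1028 and 1068 CPM in control, 891, 974 and 1009 with isoproterenol, and 924, 989 and 1019 with both drugs. In both subunits the 3 groups overlapped. As means, the large subunit sum was 2041 ± 86.0, 1963 ± 102 and 1972 ± 87.9 CPM, and the small subunit sum 1021 ± 44.4, 963 ± 43.4 and 978 ± 39.0 CPM (control, isoproterenol, both drugs, SD, n = 6).

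The balance of the subunits was taken as the mean log2 CPM of large minus small subunit genes in each library. This difference was 0.19 ± 0.019 in control (0.163 to 0.214), 0.21 ± 0.020 with isoproterenol (0.174 to 0.237) and 0.20 ± 0.018 with both drugs (0.172 to 0.224; SD, n = 6). All 3 ranges overlapped, and the means lay within about 1 SD of each other. As a score over chosen genes it was given no test. With Mrps18a and Mrps30 moved to the large subunit and Mrps36 left out, the differences were 0.25, 0.27 and 0.25 in the same order.

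**Figure D2:**
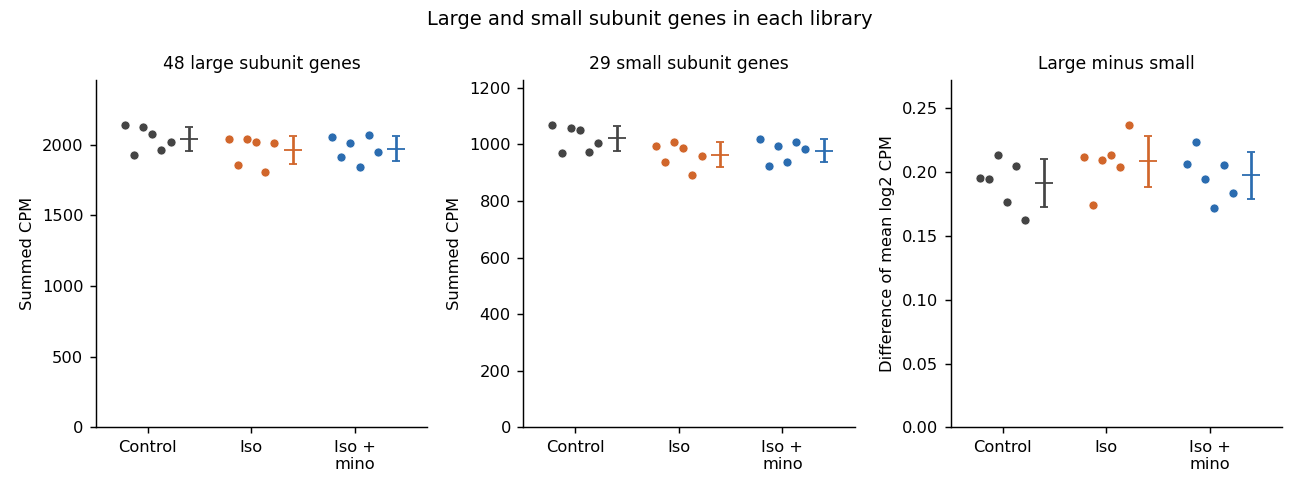
Summed CPM of the large (left) and small (middle) subunit genes and the difference of their mean log2 CPM (right), each point 1 library, with the mean and SD of 6 libraries beside each group. The groups overlap in all 3 panels.

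The first comparison, isoproterenol against control, asks what β-adrenergic stimulation did to these genes. Most estimates lay slightly below 0, and 6 of the 77 passed the test: Mrpl14, Mrpl16 and Mrpl20 rose 1.22- to 1.24-fold, and Mrps35, Mrps36 and Mrpl30 fell. The 3 that rose are all large subunit genes, although on library totals without a scaling factor, where 9 rose, the small subunit genes Mrps6 and Mrps12 were among them. Of the 48 large subunit genes 3 rose and 1 fell, and of the 29 small subunit genes 0 rose and 2 fell. Mrps36 is 1 of these 2 by its symbol alone. Over all genes tested 12.6% passed edgeR's quasi-likelihood test at 0.05 after Benjamini-Hochberg adjustment, 6.94% rising and 5.62% falling, against 7.79% of the 77. The call rate of these genes was thus below that of all genes, and that difference was not tested.

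Mrpl14 (ENSMUSG00000023939, chr17:45686322-45698495, + strand), whose product lies on the face of the large subunit that meets the small one, had 36.0, 38.7 and 42.8 CPM in control (lowest, median, highest) and 45.8, 48.2 and 52.9 CPM with isoproterenol. Every isoproterenol library lay above every control library. The mean went from 39.2 ± 2.75 to 48.5 ± 2.66 CPM (SD, n = 6), a log2 fold change of 0.31 (SE 0.059, adjusted p = 0.00153, edgeR). Its start overlaps 584 bases of Tmem63b on the other strand, which held 193% as many counts, had a log2 fold change of 0.09 and was not called. How the authors' counting treated strand is not given in the sources used here, so the level of Mrpl14 is uncertain.

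Mrpl16 (ENSMUSG00000024683, chr19:11770415-11774944, +), the counterpart of bacterial L16, had 35.6, 38.1 and 40.9 CPM in control and 43.5, 47.9 and 50.2 CPM with isoproterenol, again without overlap. Its log2 fold change was 0.30 (SE 0.056, adjusted p = 0.00133, edgeR). Mrpl20 (ENSMUSG00000029066, chr4:155802878-155809975, +), the counterpart of bacterial L20, had 23.1, 24.3 and 24.97 CPM in control and 25.6, 29.5 and 32.2 CPM with isoproterenol. The groups did not overlap, although the lowest isoproterenol library was close to the control range, and the log2 fold change was 0.29 (SE 0.057, adjusted p = 0.00201, edgeR).

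The largest fall was that of Mrps35 (ENSMUSG00000040112, chr6:147042764-147073991, +), a small subunit protein without a bacterial counterpart. It had 58.4, 63.8 and 69.5 CPM in control and 47.5, 51.3 and 54.6 CPM with isoproterenol, and the groups did not overlap. The mean went from 64.3 ± 4.29 to 51.4 ± 2.60 CPM, a log2 fold change of -0.32 (SE 0.057, adjusted p = 7.18e-04, edgeR). Mrps36 (ENSMUSG00000061474, chr13:100735955-100744659, -) had 51.8, 53.1 and 60.4 CPM in control and 42.5, 47.3 and 50.4 CPM with isoproterenol, without overlap, with a log2 fold change of -0.22 (SE 0.065, adjusted p = 0.0273, edgeR).

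Mrpl30 (chr1:37890477-37898535, +), the counterpart of bacterial L30, had 88.6, 96.1 and 104 CPM in control and 74.8, 84.6 and 91.1 CPM with isoproterenol. The ranges overlapped, with Isoproterenol 3 and 6 above the lowest control library, and the log2 fold change was -0.19 (SE 0.058, adjusted p = 0.0331, edgeR). In all, 3 of the 77 genes were higher without overlap, beside 3.66% of all genes, and 2 were lower without overlap, beside 3.25% (6.9% in either direction).

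Mrpl30 lost its call when Control 1, 3 or 4 or Isoproterenol 1, 2 or 5 was left out, as did Mrps36 with Control 1 or 3 or Isoproterenol 5 or 6. Both were lost without the libraries of high Myl7 (adjusted p = 0.0840 and 0.0948, edgeR), which left Mrps35 as the 1 gene that fell. The calls of Mrpl14, Mrpl16, Mrpl20 and Mrps35 held when any 1 library was left out.

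Across the 77 genes the estimates ran from -0.32 to 0.31 and 64 (83.1%) were negative, 41 of 48 large and 23 of 29 small, against 49.8% of all genes tested. Their median was -0.068 (large -0.077, small -0.057) against 0.0011 for all genes, but on library totals without a scaling factor it was 0.075, where all genes shifted to 0.144, so that the distance to all genes was -0.069 on either scale. Without adjustment, 4 genes were higher and 19 lower at p under 0.05, together 23 of 77. Of all 13281 genes tested, 1966 were higher and 1704 lower by the same measure, together 27.6%.

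With the mean level of the cardiomyocyte markers added to the model, the median of the 77 was 0.006 and that of all genes 0.009. In that fit 5 of the 77 rose (Mrpl14, Mrpl16, Mrpl39, Mrpl50 and Mrps6) and 0 fell, and the adjusted p of Mrps35 was 0.0975 and that of Mrpl20 0.0576 (edgeR). Since the marker level differed between the groups, its part and that of the treatment cannot be told apart.

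**Figure D3:**
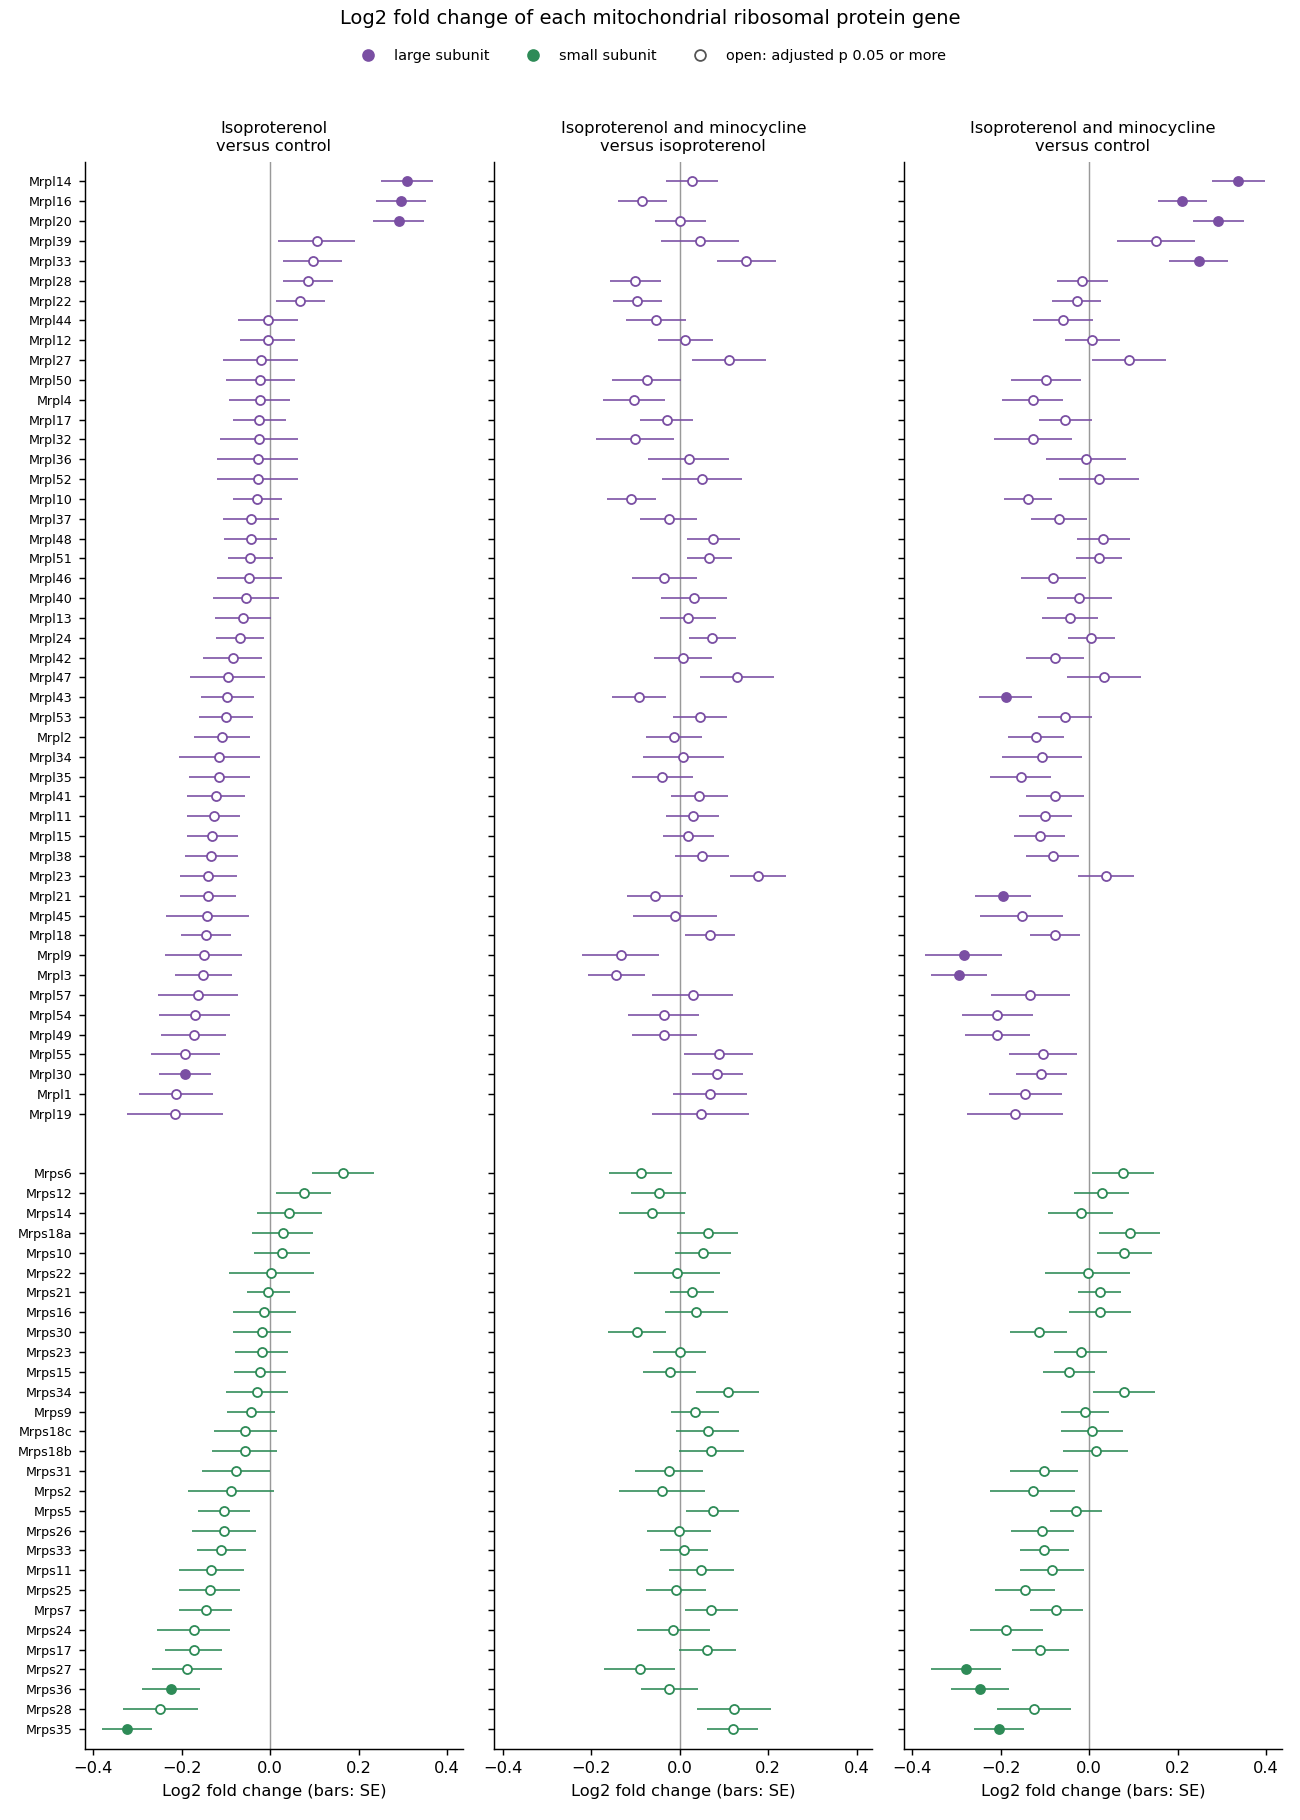
Log2 fold change with its SE for each of the 77 genes in the 3 comparisons, in the order of the first, purple for large and green for small subunit genes, filled where the adjusted p was under 0.05. The first panel has 3 filled points at 0.29 to 0.31 and 3 below 0, the second has 0 filled points, and the third has 4 above and 7 below 0.

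The second comparison, minocycline with isoproterenol against isoproterenol alone, asks what the antibiotic added. Of the 77 genes 0 rose and 0 fell in edgeR's quasi-likelihood test, where 0.0527% of all genes (7 of 13281) were called, 0.00753% rising and 0.0452% falling. At an unadjusted p under 0.05 the test gave 4 of the 77, against 7.6% of all genes. DESeq2 and limma-voom also called 0, with 4 and 5 at an unadjusted p under 0.05. The estimates ran from -0.14 to 0.18 with SEs of 0.049 to 0.11, and the largest of them, 0.18, was not called. In this comparison 0 of the 77 were without overlap, beside 0.346% of all genes (0.188% higher, 0.158% lower).

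The median estimate was 0.013 (large 0.016, small 0.009), against -0.003 for all genes, and 33 of 77 were negative. The 5 genes with the smallest unadjusted p were Mrpl23, Mrpl33, Mrpl3, Mrps35 and Mrpl10. Mrpl23, the counterpart of bacterial L23 near the exit of the peptide tunnel, had 32.2, 34.4 and 38.1 CPM with isoproterenol and 35.7, 38.9 and 44.6 CPM with both drugs. These ranges overlapped and the log2 difference was 0.18 (SE 0.063, adjusted p = 0.519, edgeR). The log2 differences of the others were 0.15 for Mrpl33, -0.14 for Mrpl3, 0.12 for Mrps35 and -0.11 for Mrpl10, with adjusted p from 0.607 to 0.688 (edgeR). Mrpl10, the counterpart of bacterial L10 at the base of the stalk, had 29.85, 32.75 and 34.5 CPM with isoproterenol and 27.7, 29.7 and 33.55 CPM with both drugs, which overlapped (SE 0.055).

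Small subunit genes taken for their known role, whatever their values, had no call here either. Mrps12, whose bacterial counterpart S12 lies at the decoding site, had 17.0, 18.7 and 20.5 CPM with isoproterenol and 16.4, 17.6 and 20.3 CPM with both drugs. Its log2 difference was -0.05 (SE 0.062, adjusted p = 0.873, edgeR). Mrps14 had 16.9, 19.8 and 21.9 CPM with isoproterenol and 17.4, 18.4 and 20.2 CPM with both drugs, a difference of -0.06 (SE 0.074). Mrps5 had 29.55, 31.7 and 35.1 CPM with isoproterenol and 29.65, 34.7 and 35.4 CPM with both drugs, a difference of 0.07 (SE 0.059). The 2 groups overlapped for all 3 genes.

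The third comparison, both drugs against control, shares its 6 control libraries with the first, so the 2 are not independent. Here 11 of the 77 passed the test (14.3%), against 19.3% of all genes (10.2% rising, 9.05% falling). Mrpl14, Mrpl16, Mrpl20 and Mrpl33 rose, all of them large subunit genes. On library totals Mrps18a rose too, a small subunit gene by symbol whose product structures place in the large subunit. Mrpl3, Mrpl9, Mrpl21 and Mrpl43 of the large and Mrps27, Mrps35 and Mrps36 of the small subunit fell. Mrps36 is counted there by its symbol alone. Of all 77, 5 were called in both comparisons with control (Mrpl14, Mrpl16, Mrpl20, Mrps35 and Mrps36), 1 in the first alone, 6 in the third alone, and 65 in none of the 3 comparisons. Being called in 1 and not in the other does not show that the 2 differ.

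The genes that rose in both comparisons with control kept similar levels. Mrpl14 had 46.5, 47.9 and 54.3 CPM with both drugs (mean 49.5 ± 3.31), a log2 fold change of 0.34 against control (SE 0.059, adjusted p = 4.61e-04, edgeR). For Mrpl16 the values were 41.3, 43.6 and 47.8 CPM (mean 44.4 ± 2.46) and 0.21 (SE 0.056, adjusted p = 0.0116, edgeR). Mrpl20 had 28.1, 29.2 and 31.8 CPM (mean 29.6 ± 1.35) and a log2 fold change of 0.29 (SE 0.057, adjusted p = 0.00129, edgeR). For all 3 the libraries of both drugs lay above every control library, and these were the 3 of 77 higher without overlap, beside 3.55% of all genes. The Mrpl16 call was lost without the libraries of high Myl7 (adjusted p = 0.0640, edgeR).

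Mrpl33, the counterpart of bacterial L33, rose against control with both drugs. It had 28.4, 31.6 and 33.7 CPM in control, 31.2, 33.8 and 35.1 CPM with isoproterenol and 33.3, 36.1 and 43.9 CPM with both drugs. The highest values were those of Isoproterenol and minocycline 4 and 6, and the lowest overlapped the control range. The log2 fold change against control was 0.25 (SE 0.067, adjusted p = 0.0130, edgeR), and it held when any 1 library was left out.

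Mrpl3 (ENSMUSG00000032563, chr9:105053239-105079888, +), the counterpart of bacterial L3, had the largest fall. It had 59.6, 62.1 and 63.8 CPM in control, 50.4, 55.8 and 62.1 CPM with isoproterenol and 46.0, 48.2 and 57.6 CPM with both drugs. The libraries of both drugs lay below every control library, while those of isoproterenol alone overlapped both groups. The log2 fold change was -0.29 (SE 0.064, adjusted p = 0.00304, edgeR) with both drugs and -0.15 (SE 0.064, adjusted p = 0.126, edgeR) with isoproterenol alone. The difference between these, -0.14, did not pass the test (adjusted p = 0.615, edgeR).

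Mrps35 lay between its levels in the other groups, with 52.1, 55.1 and 59.8 CPM with both drugs. It stayed below control by 0.20 on the log2 scale (SE 0.056, adjusted p = 0.0153, edgeR), and the libraries of the 2 groups overlapped. Mrps36 had 39.2, 46.9 and 51.0 CPM, all below control, and a log2 fold change of -0.25 (SE 0.065, adjusted p = 0.0110, edgeR). Mrpl3 and Mrps36 were the 2 of 77 lower without overlap, beside 3.59% of all genes (7.14% in either direction).

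The other 4 genes that fell (Mrps27, Mrpl9, Mrpl43 and Mrpl21) overlapped control. Mrps27, a small subunit protein with pentatricopeptide repeats, had 27.7, 30.2 and 34.4 CPM in control and 19.9, 25.3 and 28.8 CPM with both drugs (log2 fold change -0.28, SE 0.080, adjusted p = 0.0182, edgeR). Mrpl9, the counterpart of bacterial L9, had 34.6, 40.3 and 43.6 CPM in control and 25.6, 33.8 and 37.4 CPM with both drugs (-0.28, SE 0.087, adjusted p = 0.0267, edgeR). Isoproterenol and minocycline 4 was the lowest library for both genes.

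Mrpl43, a large subunit protein found only in mitochondria, had 23.6, 26.02 and 27.5 CPM in control and 21.3, 22.6 and 24.6 CPM with both drugs (-0.19, SE 0.061, adjusted p = 0.0333, edgeR). Mrpl21, the counterpart of bacterial L21, had 25.9, 27.4 and 29.6 CPM in control and 21.1, 23.55 and 26.8 CPM with both drugs (-0.20, SE 0.063, adjusted p = 0.0342, edgeR). Leaving out 1 library ended the call of Mrps27 (Control 3), Mrpl9 (Control 3, 4 or 6, or Isoproterenol and minocycline 4 or 6), Mrpl21 (Control 1, 3 or 4, or Isoproterenol and minocycline 2, 4 or 6) and Mrpl43 (Control 2, 3 or 4, or Isoproterenol and minocycline 2, 3, 4 or 6). The number of genes that fell was 3 without Control 3 and 4 without Control 4 or without Isoproterenol and minocycline 4 or 6. Without the libraries of high Myl7 the calls of Mrps27, Mrpl21 and Mrpl43 were lost (adjusted p = 0.0839, 0.130 and 0.126, edgeR).

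**Figure D4:**
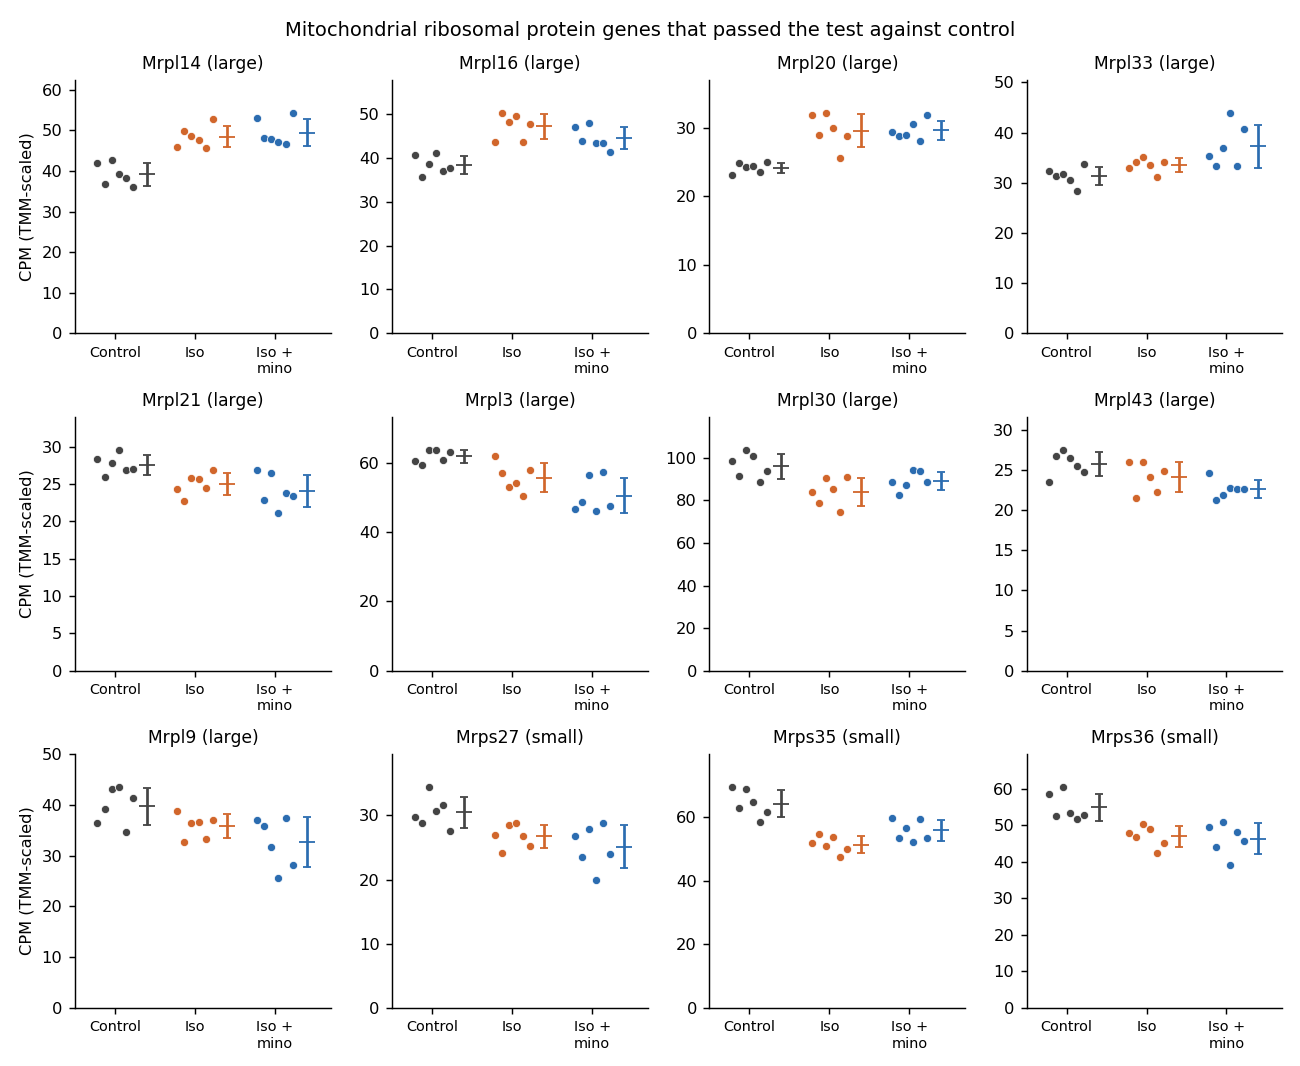
CPM of the 12 genes called in either comparison with control, each point 1 library, with the mean and SD of 6 libraries beside each group and all axes from 0. The 4 genes that rose come first. Mrpl14, Mrpl16 and Mrpl20 lie above control in both drug groups, and Mrps36 lies below control in both.

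Estimates against control with both drugs were negative for 55 of the 77 (35 of 48 large, 20 of 29 small), against 49.3% of all genes. The median was -0.076 (large -0.077, small -0.046) against 0.0035 for all genes, and on library totals without a scaling factor it was 0.027, where all genes shifted to 0.105. With the cardiomyocyte markers in the model the median was 0.013, 3 genes rose (Mrpl14, Mrpl16 and Mrpl39) and 0 fell. On library totals the 1 gene that fell was Mrps35 with isoproterenol and Mrpl3 with both drugs, and Mrpl14, Mrpl16, Mrpl20, Mrpl33 and Mrpl39 rose in both comparisons. There Mrpl22, Mrpl28, Mrps6 and Mrps12 also rose with isoproterenol and Mrps18a with both drugs.

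Of the genes taken for a known role, Mrpl12, Mrpl44, Mrps5, Mrps12, Mrps14, Mrps22 and the 3 Mrps18 genes had no call in any comparison on TMM-scaled libraries. Mrpl12 had means of 108 ± 6.00, 107 ± 9.28 and 108 ± 6.72 CPM in control, isoproterenol and both drugs (SD, n = 6). Mrpl3, Mrpl44, Mrps14 and Mrps22 are genes in which rare variants cause cardiomyopathy in people. Of these Mrpl3 is described above, and Mrpl44 had 34.8 ± 1.70, 34.7 ± 3.79 and 33.5 ± 2.12 CPM. Mrps22 had 13.1 ± 1.05, 13.1 ± 1.73 and 13.1 ± 1.76 CPM and Mrps14 18.8 ± 1.64, 19.4 ± 2.02 and 18.6 ± 1.03 CPM. The 3 groups overlapped for each of Mrpl12, Mrpl44, Mrps22 and Mrps14.

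Mrps18a, Mrps18b and Mrps18c are paralogs that take separate places in the ribosome. Whether any reads were shared between these paralogs was not tested. Mrps18a had 51.7 ± 3.04, 52.7 ± 6.05 and 55.0 ± 3.21 CPM, Mrps18b 31.1 ± 1.65, 29.9 ± 1.81 and 31.4 ± 4.04 CPM, and Mrps18c 16.1 ± 0.932, 15.5 ± 1.25 and 16.2 ± 1.40 CPM. The 3 did not pass the test in any comparison on TMM-scaled libraries.

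The genes that share a start region with a called gene gave no call of their own. Tmem63b beside Mrpl14, Mitd1 beside Mrpl30, Ptcd2 beside Mrps27, Ighmbp2 beside Mrpl21 and Peo1 beside Mrpl43 did not pass the test in any comparison. Ptcd2 had a log2 fold change of -0.12 with both drugs, where Mrps27 had -0.28, and the difference between them was not tested. Of the 77 genes, 13 are overlapped by another gene with at least 20% as many counts, and Mrpl14 is the 1 of the 12 called genes among them.

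Other genes of mitochondrial translation were taken from lists made by known function and read from the same edgeR fit. Beside the counts that follow, 6.94% of all genes tested rose and 5.62% fell with isoproterenol. With both drugs 10.2% rose and 9.05% fell. The differences between lists and all genes were not tested. Values of the lists come from this fit alone. They were not read on library totals or with the cardiomyocyte markers in the model. Of the 6 ribosome proteins under other symbols 0 rose and 2 fell with isoproterenol, and 0 rose and 1 fell with both drugs. Ptcd3, a pentatricopeptide protein of the small subunit, had 90.7 ± 5.53, 71.5 ± 6.65 and 66.0 ± 9.69 CPM in the 3 groups, with log2 fold changes of -0.34 (adjusted p = 0.0101) and -0.46 (adjusted p = 6.92e-04). Ict1, a peptide release factor built into the large subunit, had 29.4 ± 2.00, 24.8 ± 2.30 and 28.2 ± 1.76 CPM, with -0.24 (adjusted p = 0.0206) and -0.06 (adjusted p = 0.577).

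Factors that assemble the ribosome or modify its RNA numbered 29, of which 2 fell with isoproterenol, 5 fell with both drugs and 0 rose. Rpusd4, a pseudouridine synthase, changed by -0.41 in both comparisons (adjusted p = 0.00760 and 0.00519, edgeR) and Mterf3, which takes part in ribosome assembly in mitochondria, by -0.30 and -0.29 (adjusted p = 0.0119 and 0.00959, edgeR). The medians of this list were -0.096 and -0.14. The list also holds Mettl5, which acts on cytosolic ribosomal RNA and was not called.

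Among 17 translation factors and mRNA partners 1 rose and 3 fell with isoproterenol, and 0 rose and 7 fell with both drugs. Mrrf, the factor that recycles ribosomes after termination, had 29.6 ± 1.41, 22.6 ± 1.41 and 20.8 ± 2.53 CPM, with log2 fold changes of -0.39 and -0.51 (adjusted p = 0.00124 and 5.88e-05, edgeR). Tsfm, the exchange factor for elongation factor Tu, was the 1 that rose, from 12.8 ± 1.24 to 16.5 ± 1.55 CPM (0.36, adjusted p = 0.00630, edgeR). Pdf, the enzyme that removes the formyl group from new proteins, fell in both comparisons, by 0.27 and 0.32 on the log2 scale. The medians of the list were -0.18 and -0.25, beside -0.068 and -0.076 for the 77 genes, a difference that was not tested.

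Aminoacyl-tRNA synthetases and related enzymes of mitochondria numbered 22, of which 3 fell with isoproterenol (Kars, Gatb and Wars2), 6 fell with both drugs, and 0 rose. Gatb, a subunit of the enzyme that makes glutaminyl-tRNA, changed by -0.29 and -0.32 (adjusted p = 0.0129 and 0.00449, edgeR). Lars2 stands in this list and in the assembly list. Of 14 genes for mitochondrial DNA transcription and maintenance 0 were called with isoproterenol and 2 fell with both drugs, Tfb2m (-0.36) and Mterf2 (-0.44). Of 9 regulators, among them Nrf1, Gabpa, Yy1 and Ppargc1a, 0 were called in any comparison.

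The 13 messages of the mitochondrial genome, which these ribosomes translate, were lower in all 13 estimates with isoproterenol, with 5 that fell and a median of -0.26. With both drugs 5 fell, with a median of -0.19. The protein genes of the cytosolic ribosome (79 tested) had 11 that fell and 0 that rose with isoproterenol, with a median of -0.097, but 4 that rose and 0 that fell with both drugs, with a median of 0.044. With minocycline added to isoproterenol 78 of those 79 estimates were positive, with a median of 0.15 and 0 calls, where the mitochondrial ribosomal proteins had 44 of 77 positive and a median of 0.013. No other list had a call in that comparison.

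**Figure D5:**
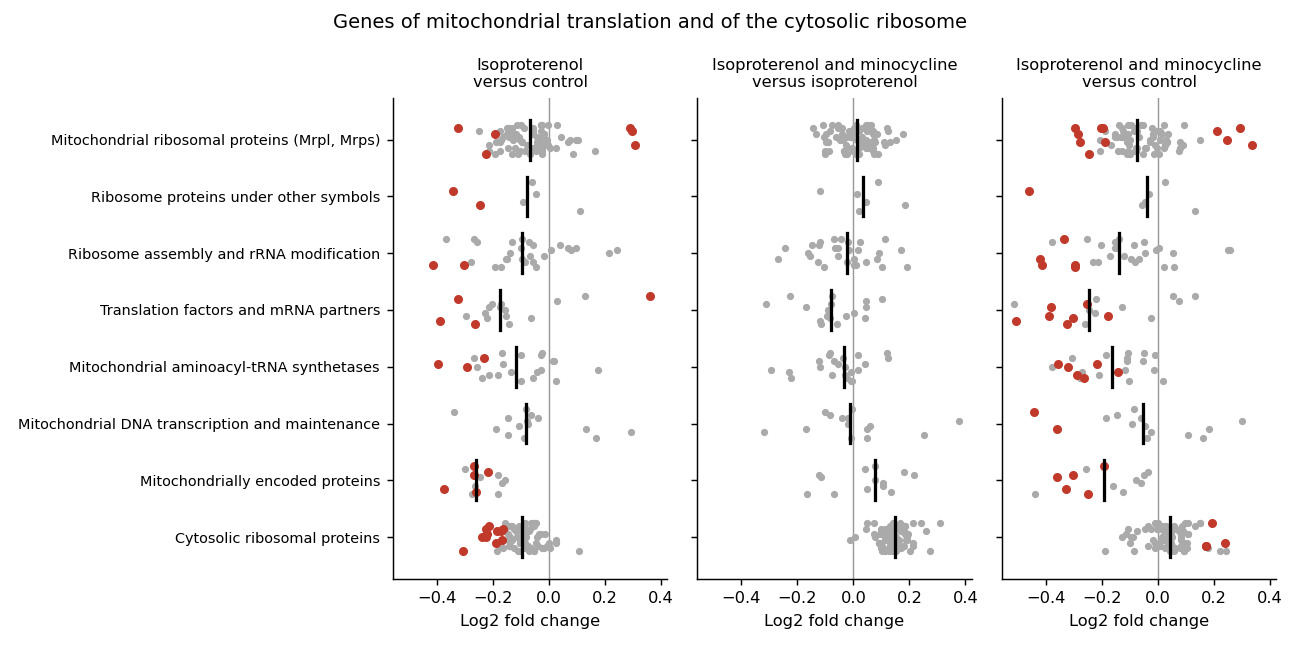
Log2 fold changes of the mitochondrial ribosomal protein genes and of 7 lists of genes of mitochondrial translation or the cytosolic ribosome, each point 1 gene, red where the adjusted p was under 0.05, with a black line at each list's median. Most medians lie below 0 against control, and the cytosolic ribosome stands to the right of 0 at 0.15 in the middle panel.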

How the data were processed

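The deposited table gives raw read counts for each gene in each library (total counts, per the file headers) and TPM values per the file headers. Per the labels' protocols, the authors trimmed reads in CLC Genomics Workbench 21.0.3 (quality limit 0.05, at most 2 ambiguous bases) and used its RNA-seq module. The submitters' processing notes name edgeR without a role. Aligner settings, genome build, annotation and strand handling: not given in the sources used here. Columns were matched to libraries by their description numbers, with 0 columns left over.

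The test was that of edgeR 4.0.16 (R 4.3.3; filterByExpr by group, TMM, glmQLFit with robust estimation, glmQLFTest, 2-sided) in 1 fit of 18 libraries, with Benjamini-Hochberg adjustment over 13281 genes and a threshold of 0.05. The biological coefficient of variation was 13.2%. A prior count of 2 was used for log2-CPM values, and deposited TPM served for levels between genes and not for tests between groups. Totals of 14203041 to 22688664 counts cover counting error only.

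The genes, lists, alternatives and motifs were chosen with earlier results of these data known. Values are given for genes called in any comparison, the 5 smallest p in each, genes of a known role, and the 3 highest and 3 lowest levels; from each other list up to 3 called genes of smallest p were open to mention. Alternatives were DESeq2 1.42.0, limma-voom (limma 3.58.1) with quality weights, other scalings, filters and sets of libraries, and a cardiomyocyte marker covariate. Scaling by total counts and the grouping of subunits by structure were added after values were seen. The test was also run on simulated data. No outcome of that run is given here, so it says nothing about how reliable the calls above are.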

Additional observations from a re-analysis of the deposited data

Results flagged for a closer look

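Values per library were looked at in 87 groups of 6 libraries, for the CPM of the named genes, the summed CPM of all 77 genes and the large minus small subunit difference, and 2 had a single library far from the other 5, measured as the gap to the nearest library over the whole range. Chance alone gives about 1 in 20 groups. Mrpl23 had 44.2 CPM in Control 1, where the other 5 control libraries had 36.2 to 38.4 CPM (gap over range 0.73). Mrps10 had 18.3 CPM in Isoproterenol and minocycline 4, where the other 5 had 14.5 to 15.5 CPM (gap over range 0.749). Neither gene was called in any comparison.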

How the results depend on the processing

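The number of genes that rose with isoproterenol was 3 when any 1 library was left out, and it was 9 on library totals without a scaling factor and 5 with the cardiomyocyte markers as a covariate. The number that fell was 1 to 4 when 1 library was left out (1 without Control 1, Control 3 or Isoproterenol 5), 1 on library totals, 1 without the libraries of high Myl7 and 0 with the covariate. With both drugs the number that fell was 3 to 10 when 1 library was left out, 1 on library totals and 0 with the covariate. For isoproterenol the median of large subunit genes was 0.067 on library totals and 0.012 with the covariate, and that of small subunit genes 0.085 on library totals. With both drugs the large subunit median was 0.024 and 0.014, and the small subunit median 0.057 and 0.013, in the same 2 fits. The cause of these shifts was not tested, except that without a scaling factor all genes shifted too. The large minus small difference was 0.23, 0.25 and 0.24 (control, isoproterenol, both drugs) for genes above 10 CPM, 0.9996, 1.03 and 1.01 as the log2 ratio of summed CPM, which counts 48 against 29 genes, and 0.249, 0.269 and 0.254 with genes grouped by structure. The other alternatives, DESeq2 and limma-voom among them, kept these counts within 1.5 times and the medians within the spread between libraries, and no called gene, and none of the 5 genes of smallest p in a comparison, changed its direction under any of them. Single calls still ended: of the genes that fell with both drugs, Mrpl9 and Mrpl21 were lost under limma-voom and with only the 12 libraries compared, and Mrpl21 and Mrpl43 with no filter. With no filter Mrpl30 was lost too, in the isoproterenol comparison. No paired analysis was possible because no 2 groups have deposited library numbers in common. The replicate numbers used here follow the order of the samples within each group and mark no pairs. At these depths the standard errors in the second comparison were 0.049 to 0.11 on the log2 scale.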
